A study of Mus musculus with 12 samples.

Results

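Expression of 10 genes that mark epithelial or mesenchymal identity was examined in mouse embryonic stem cells of 4 lines. The genes were chosen by name from the 43346 Ensembl genes of a table of expected read counts, and all 10 were found there. Cdh1 and Epcam encode adhesion molecules of embryonic stem cells and epithelia. The other 8 are mesenchymal genes: Cdh2 and Vim encode structural proteins, and Zeb1, Zeb2, Snai2, Twist1, Twist2 and Prrx1 encode transcription factors. All 10 passed the filter on low counts and entered the test.

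Epithelial cells are held together by E-cadherin, the product of Cdh1, at adherens junctions, and mouse embryonic stem cells rely on the same molecule to grow as compact colonies. In an epithelial-mesenchymal transition, transcription factors of the ZEB, SNAI and TWIST families repress Cdh1 and other epithelial genes, and cells gain N-cadherin (Cdh2) and the intermediate filament protein vimentin (Vim). Fibroblasts express the mesenchymal genes and lack E-cadherin. ZEB and SNAI proteins bind E-box sequences of the form CACCTG.

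RNA was sequenced from 12 libraries, 3 from each of 4 groups, by the protocol and the series type, although the molecule field of the labels names genomic DNA. The parental groups are the inbred strains C57BL/6J (B6) and DBA/2J (D2). B6-13D2 is the congenic line B6.D2-(rs30079041-rs51756099)/Bakr, which has the B6 background and a D2 segment of chromosome 13, and D2-13B6 is the reciprocal congenic line, with a B6 segment on the D2 background. All groups grew in serum medium with LIF, 1 µM PD0325901 (a MEK inhibitor) and 3 µM CHIR99021 (a GSK3 inhibitor). The labels name no other treatment and say nothing about feeder cells. By the protocol, the 3 libraries of a strain are separate cultures of a single cell line, so strain and line cannot be told apart, and p-values measure the spread between cultures of that line. The titles instead say technical replicates and give B6 replicate 3 another line name (B6 4-1, against B6 5-1). D2 titles name line 2-9 while the cell line field names 5-5, and the segment end of D2-13B6 differs between the sample labels (rs29224292-rs13469455) and the design text (rs29224292-rs51756099).

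Library totals lay between 22184196 and 36411799 expected counts, and the members' counts between 36.74 (Twist2) and 104809 (Vim). Levels are given as CPM, counts divided by the scaled library size and brought to a common total. The 10 embryonic stem cell markers examined, among them Pou5f1, Nanog and Sox2, lay between 58.0 and 1397 CPM in every library. In the deposited table the names of all congenic columns, and of no parental column, begin with a further character. If that marks a batch, batch and congenic status cannot be told apart. None of the 10 genes lies on chromosome 13.

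The promoters of Epcam and Vim are shown because these genes stand at opposite ends of the contrast: Epcam was highest, and Vim lowest, in the same line. Of the 10 genes, 6 had an entry in RefSeq's promoter table (GRCm38.p6, 250 bases before to 50 after each transcription start), giving 9 promoters. CACCTG was searched on both strands, so that its reverse complement CAGGTG also counts; these letters do not overlap in a way that counts a site again. Capitals mark matches, and sequences run 5′ to 3′ on the strand of the gene. The Epcam promoter (chr17:87635729-87636028, plus strand) reaches from upstream sequence into the first exon, and the Vim promoter (chr2:13574061-13574360, plus strand) lies inside the gene's GENCODE span, which opens at 13573927.
Epcam: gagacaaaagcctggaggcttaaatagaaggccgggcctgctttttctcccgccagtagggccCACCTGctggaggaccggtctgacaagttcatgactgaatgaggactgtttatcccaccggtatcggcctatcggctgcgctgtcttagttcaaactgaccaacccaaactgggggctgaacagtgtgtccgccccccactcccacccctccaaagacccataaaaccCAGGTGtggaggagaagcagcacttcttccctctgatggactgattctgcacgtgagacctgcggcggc
Vim: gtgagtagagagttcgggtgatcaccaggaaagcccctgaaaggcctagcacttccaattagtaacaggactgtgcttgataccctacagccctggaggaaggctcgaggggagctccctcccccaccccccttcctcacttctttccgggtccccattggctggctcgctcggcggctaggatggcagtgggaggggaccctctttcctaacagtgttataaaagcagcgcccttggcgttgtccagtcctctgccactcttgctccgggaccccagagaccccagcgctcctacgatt
Epcam held 2 matches, CACCTG at position -187 and CAGGTG at -19, counted from the start site as 0. Vim held 0, as did the other 7 promoters of members in the table, those of Zeb2, Twist1, Twist2 and Prrx1. Among all 32851 promoters of that length, 20.2% held at least 1 match and 2.88% at least 2. A match describes the letters and was not measured as a bound site.

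Cdh1 (chromosome 8, 106603351 to 106670246, plus strand) was highest in B6-13D2 and lowest in D2, with a 4.16-fold span between group means. Its level was 484, 469 and 503 CPM in the B6 libraries and 127, 132 and 139 CPM in those of D2. B6-13D2 had 554, 559 and 542 CPM, and D2-13B6 had 244, 245 and 255 CPM. No libraries of different groups overlapped, and the order from low to high was D2, D2-13B6, B6, B6-13D2. Compared with B6, Cdh1 was 3.66-fold lower in D2 (log2 fold change -1.87, SE 0.0392, edgeR adjusted p 2.011e-16). Against its background strain, each congenic line was higher: 1.14-fold in B6-13D2 over B6 (log2 0.18, SE 0.037, edgeR adjusted p 0.0003534) and 1.87-fold in D2-13B6 over D2 (log2 0.90, SE 0.0387, edgeR adjusted p 2.266e-12). In bulk RNA, fewer cells of a type and less RNA per cell cannot be told apart, here and for the other genes.

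Epcam (chromosome 17, 87635979 to 87651129, plus strand), an adhesion molecule used to mark epithelia and undifferentiated stem cells, separated B6-13D2 from the rest. B6-13D2 had 111, 123 and 114 CPM. B6 had 52.4, 54.3 and 55.0 CPM, D2 had 57.8, 56.6 and 59.9 CPM, and D2-13B6 had 67.4, 66.6 and 65.7 CPM. The B6-13D2 libraries lay above all others, and the remaining groups lay close together without overlap. Epcam was 2.15-fold higher in B6-13D2 than in B6 (log2 1.11, SE 0.0425, edgeR adjusted p 2.337e-13) and 1.15-fold higher in D2-13B6 than in D2 (log2 0.20, SE 0.0425, edgeR adjusted p 0.000624). Between the parental strains it differed by 1.08-fold (log2 0.11, SE 0.0445, edgeR adjusted p 0.0484), and this call was lost in 8 of the alternative settings, among them the replicate block (adjusted p 0.0561) and the fit without B6 replicate 1 (adjusted p 0.168).

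Cdh2 (chromosome 18, 16588877 to 16809246, minus strand) ran nearly opposite to Cdh1. Its level was 81.3, 82.6 and 75.8 CPM in the B6 libraries, 128, 126 and 133 in those of D2, 24.5, 23.6 and 22.5 in those of B6-13D2, and 70.2, 72.9 and 71.5 in those of D2-13B6. The groups did not overlap: D2 was highest, B6-13D2 lowest, and the means spanned 5.47-fold. Cdh2 was 1.61-fold higher in D2 than in B6 (log2 0.69, SE 0.0407, edgeR adjusted p 1.657e-10), 3.39-fold lower in B6-13D2 than in B6 (log2 -1.76, SE 0.0467, edgeR adjusted p 1.702e-15) and 1.80-fold lower in D2-13B6 than in D2 (log2 -0.85, SE 0.0401, edgeR adjusted p 8.133e-12). The summed level of 12 fibroblast markers had the same order of groups, with a 5.00-fold span.

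Vim (chromosome 2, 13573927 to 13582826, plus strand) had the highest counts of the 10 genes. B6 libraries had 1961, 1930.3 and 1885 CPM, D2 libraries 2873, 2915 and 2696 CPM, B6-13D2 libraries 709.6, 676 and 674 CPM, and D2-13B6 libraries 1435, 1445 and 1444 CPM. Again D2 was highest and B6-13D2 lowest, without overlap between groups. Vim was 1.47-fold higher in D2 than in B6 (log2 0.55, SE 0.034, edgeR adjusted p 2.55e-10), 2.81-fold lower in B6-13D2 than in B6 (log2 -1.49, SE 0.0348, edgeR adjusted p 4.585e-16) and 1.96-fold lower in D2-13B6 than in D2 (log2 -0.97, SE 0.0342, edgeR adjusted p 2.463e-13).

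Prrx1 (chromosome 1, 163245119 to 163313710, minus strand), a paired-type homeobox factor of limb and craniofacial mesenchyme, had the most counts of the 6 transcription factors. It had 158, 164 and 155 CPM in the B6 libraries, 242, 236 and 226 in those of D2, 50.3, 47.7 and 48.9 in those of B6-13D2, and 117, 119.7 and 117 in those of D2-13B6. These groups were separate, in the same order as for Vim. Prrx1 was 1.48-fold higher in D2 than in B6 (edgeR adjusted p 3.936e-10), 3.24-fold lower in B6-13D2 than in B6 (edgeR adjusted p 3.927e-16) and 1.99-fold lower in D2-13B6 than in D2 (edgeR adjusted p 2.984e-13).

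Twist1 (chromosome 12, 33957671 to 33959829, plus strand) and Twist2 (chromosome 1, 91801461 to 91848028, plus strand) are basic helix-loop-helix factors of mesoderm. Twist1 had 33.5, 34.2 and 27.9 CPM in the B6 libraries, 54.5, 52.3 and 46.0 in those of D2, 9.80, 12.6 and 10.3 in those of B6-13D2, and 28.4, 27.6 and 24.6 in those of D2-13B6. Twist2 had the lowest counts, at 5.01, 5.54 and 3.82 CPM in the B6 libraries, 10.5, 10.7 and 8.19 in those of D2, 1.83, 1.74 and 1.40 in those of B6-13D2, and 5.10, 5.26 and 5.14 in those of D2-13B6. For both genes D2 lay above and B6-13D2 below every other library, while B6 and D2-13B6 overlapped. Twist1 was 1.60-fold higher in D2 than in B6 (edgeR adjusted p 2.25e-06) and 2.93-fold lower in B6-13D2 than in B6 (edgeR adjusted p 3.563e-10). Twist2 was 2.05-fold higher in D2 than in B6 (edgeR adjusted p 2.722e-06) and 2.87-fold lower in B6-13D2 than in B6 (edgeR adjusted p 4.093e-07). Both were 1.90-fold lower in D2-13B6 than in D2, Twist1 with an edgeR adjusted p of 3.563e-08 and Twist2 of 5.113e-06. Exons of Twist2 overlap those of Gm29100 on the other strand, and its counts were whole (to within 1e-06) in 1 of 12 libraries, so its level is uncertain.

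Zeb1 (chromosome 18, 5591860 to 5775467, plus strand) and Zeb2 (chromosome 2, 44983632 to 45117395, minus strand) are zinc finger homeobox repressors of Cdh1. Zeb1 had 65.5, 70.2 and 59.1 CPM in the B6 libraries, 83.9, 85.9 and 88.2 in those of D2, 34.7, 29.3 and 35.1 in those of B6-13D2, and 68.4, 71.8 and 69.3 in those of D2-13B6. Zeb2 had 21.7, 22.7 and 20.8 CPM in the B6 libraries, 34.4, 37.1 and 36.2 in those of D2, 6.96, 7.08 and 7.25 in those of B6-13D2, and 21.1, 20.6 and 20.9 in those of D2-13B6. B6 and D2-13B6 overlapped for both genes, and D2 and B6-13D2 stood apart on either side. The span of Zeb1 over groups, 2.60-fold, was the smallest among the 8 mesenchymal genes, against 5.06-fold for Zeb2. Zeb1 was 1.32-fold higher in D2 than in B6 (edgeR adjusted p 1.701e-05), 1.97-fold lower in B6-13D2 than in B6 (edgeR adjusted p 5.232e-10) and 1.23-fold lower in D2-13B6 than in D2 (edgeR adjusted p 0.0002922). Zeb2 was 1.65-fold higher in D2 than in B6 (edgeR adjusted p 1.847e-09), 3.07-fold lower in B6-13D2 than in B6 (edgeR adjusted p 2.673e-13) and 1.72-fold lower in D2-13B6 than in D2 (edgeR adjusted p 3.213e-10). Both genes share exonic positions with genes on the other strand (Gm10125 for Zeb1, Zeb2os and Gm27761 for Zeb2), and use of the strand in counting is not given in the sources used here.

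Snai2 (chromosome 16, 14705852 to 14709385, plus strand), a zinc finger repressor also called Slug, was low in every group. It had 8.26, 8.44 and 7.20 CPM in the B6 libraries, 11.1, 13.3 and 13.9 in those of D2, 2.49, 2.99 and 3.59 in those of B6-13D2, and 7.26, 8.19 and 7.48 in those of D2-13B6. The D2-13B6 values lay within the range of B6. Snai2 was 1.61-fold higher in D2 than in B6 (edgeR adjusted p 3.619e-05), 2.64-fold lower in B6-13D2 than in B6 (edgeR adjusted p 5.388e-08) and 1.67-fold lower in D2-13B6 than in D2 (edgeR adjusted p 9.616e-06).

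**Figure D1:**
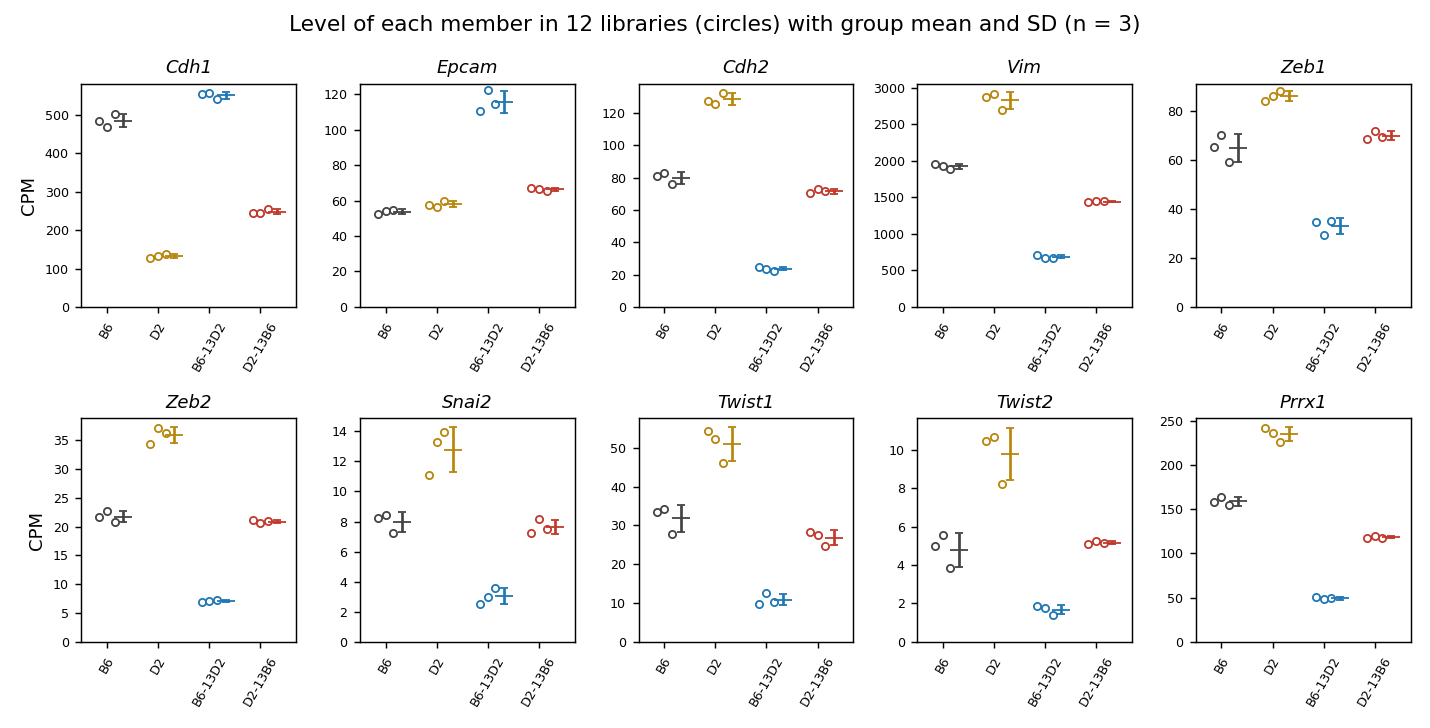
Level of each of the 10 genes in CPM (vertical axis, from 0) by group (horizontal axis), with 1 circle per library and the group mean ± SD (n = 3) beside it. Cdh1 was lowest in D2 and Epcam stood out in B6-13D2, while each of the 8 mesenchymal genes was highest in D2 and lowest in B6-13D2.

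The comparison of D2 with B6 asks how the parental lines differ. All 8 mesenchymal genes rose in D2, by log2 0.40 (Zeb1) to 1.04 (Twist2), with Epcam also counted higher as described above, and Cdh1 fell. Of the 10 genes, 9 were thus called higher and 1 lower, beside 29.8% of all 17148 genes tested called higher and 30.3% called lower (49.6% of calls higher, against 56.7% with RLE size factors). The median log2 fold change was 0.68 over the 8 mesenchymal genes and 0.01 over all genes tested.

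Placing the D2 segment in the B6 background is what separates B6-13D2 from B6, besides whatever else differs between these lines. Both adhesion genes rose and all 8 mesenchymal genes fell, from -0.98 (Zeb1) to -1.76 (Cdh2) on the log2 scale. Beside these 2 higher and 8 lower calls, 25.4% of all genes tested were called higher and 32.9% lower, a balance that turned with RLE size factors (52.0% of calls higher, against 43.5%). The mesenchymal median was -1.54 and that of all genes -0.04.

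In D2-13B6 against D2, the B6 segment on the D2 background, the directions were the same: 2 adhesion genes higher and 8 mesenchymal genes lower, where 27.6% of all genes were called higher and 29.7% lower. The mesenchymal median was -0.88, and that of all genes was 0 to within rounding. Chromosome 13 sequence of D2 replaces that of B6 in B6-13D2, and the reverse holds in D2-13B6, but the labels give the segments different boundary markers, so these comparisons do not measure exactly the same segment. Coded as D2 minus B6 allele of the respective segment, the difference had opposite signs on the backgrounds for each of the 10 genes. This restates that each gene moved the same way in both congenic comparisons, as the summed fibroblast markers did. The share of all genes tested with opposite signs was not counted. The contrast between those differences equals both congenic lines minus both parental strains. It was called for all 10 genes, at log2 1.09 for Cdh1, 1.30 for Epcam and -1.28 (Zeb1) to -2.69 (Prrx1) for the mesenchymal genes. In that contrast 31.1% of all genes were called higher and 33.4% lower, and it cannot be told apart from anything the congenic libraries share. D2 against B6 shares its B6 libraries with the first congenic comparison and its D2 libraries with the second, so its values are not independent of theirs.

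**Figure D2:**
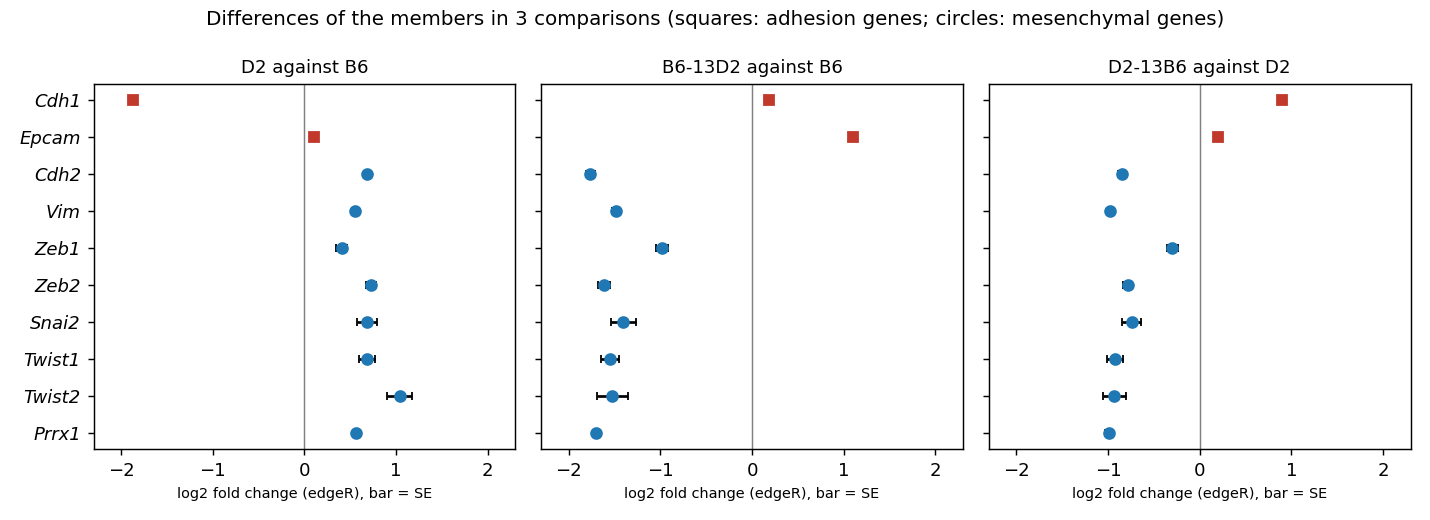
Log2 fold change from edgeR (horizontal axis, bars are the standard error) of the 10 genes in D2 against B6, B6-13D2 against B6 and D2-13B6 against D2. Adhesion genes (squares) lie right of 0 in both congenic comparisons and mesenchymal genes (circles) left of it, and in D2 against B6 the circles lie right of 0 and Cdh1 at -1.87.

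Next, the background was varied while the segment was held. B6-13D2 against D2, which share the D2 segment, gave the widest pairwise differences of Cdh1 and of each mesenchymal gene, while Epcam differed more between B6-13D2 and B6. Cdh1 was 4.16-fold and Epcam 2.00-fold higher in B6-13D2, and the mesenchymal genes were 2.61-fold (Zeb1) to 5.89-fold (Twist2) lower. All 10 were called, 2 higher and 8 lower, beside 36.7% and 38.0% of all genes. D2-13B6 against B6, which share the B6 segment, gave the smallest pairwise differences of the 8 mesenchymal genes, but not of Cdh1 and Epcam. Cdh1 was 1.96-fold lower in D2-13B6 and Epcam 1.24-fold higher. Vim was 1.34-fold, Prrx1 1.34-fold, Twist1 1.18-fold and Cdh2 1.12-fold lower. That made 1 gene higher and 5 lower, beside 24.5% and 34.6% of all genes. Cdh2 and Twist1 lost the call in some alternatives, for example with DESeq2 (adjusted p 0.061 and 0.109). The other 4 were not called by edgeR, with log2 differences of 0.11 for Zeb1 (95% interval -0.02 to 0.23), -0.06 for Zeb2 (-0.17 to 0.05), -0.06 for Snai2 (-0.30 to 0.18) and 0.11 for Twist2 (-0.18 to 0.40). Zeb1 passed with 5 alternative settings, among them DESeq2 (adjusted p 0.0423). The congenic lines differed from each other at all 10 genes. D2-13B6 had 2.22-fold less Cdh1 and 1.74-fold less Epcam than B6-13D2, and 2.10-fold (Vim) to 3.10-fold (Twist2) more of the mesenchymal genes. These 8 higher and 2 lower calls stand beside 38.4% and 31.8% of all genes.

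Levels of different genes can be compared only per length of exon. In CPM per kb, Cdh1 exceeded Cdh2 in every library. The lengths used (4574 bases for Cdh1 and 8066 for Cdh2) join all annotated exons and may exceed those of the transcripts expressed. In D2 the means before this division were close, at 133 CPM for Cdh1 and 129 CPM for Cdh2. The order of the genes in D2 thus rests on these lengths, while differences of the ratio between groups do not. The log2 ratio of Cdh1 to Cdh2 was 0.81, 0.89 and 0.88 for the D2 libraries, 2.62, 2.57 and 2.65 for those of D2-13B6, 3.39, 3.32 and 3.55 for B6, and 5.32, 5.39 and 5.41 for B6-13D2. The ratio was lowest in D2 and highest in B6-13D2, with no overlap between groups. Epcam stayed below Vim throughout, with a log2 ratio of -4.49 ± 0.10 (SD, n = 3) for D2, -4.05 ± 0.06 for B6, -3.32 ± 0.02 for D2-13B6 and -1.46 ± 0.11 for B6-13D2. Summed over the 6 transcription factors, B6-13D2 had 16.7 CPM per kb, D2-13B6 40.4, B6 46.8 and D2 72.1. Within that sum Twist1 was the highest per kb in every group, at 19.6 in B6, and Zeb2 the lowest, at 1.09 in B6. In CPM, Prrx1 was the highest of these factors and Twist2 the lowest in every group. The ranking per kb thus rests on the exon lengths used, 1628 bases for Twist1 and 19942 for Zeb2.

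**Figure D3:**
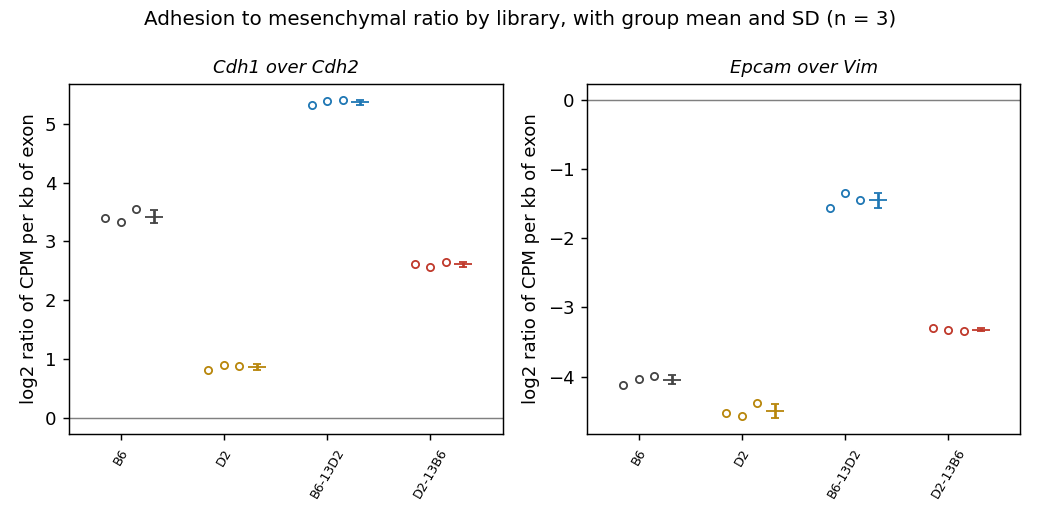
Log2 ratio of CPM per kb of exon (vertical axis) for Cdh1 over Cdh2 and Epcam over Vim, with 1 circle per library and the group mean ± SD (n = 3). Both ratios were highest in B6-13D2 and lowest in D2, where Cdh1 over Cdh2 was 0.86 and Epcam over Vim -4.49.

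The sum of fibroblast markers moved with the mesenchymal genes, though not each marker did in every comparison. The summed level of 12 fibroblast or feeder markers was 3695 to 3789 CPM over the B6-13D2 libraries, 9333 to 9725 CPM over D2-13B6, 11141 to 12061 CPM over B6 and 16993 to 20190 CPM over D2, a 5.00-fold span of group means. The order of groups for the sum was that of Vim, without overlap. By edgeR 12 of 12 were called higher in D2 against B6, 12 of 12 lower in B6-13D2 against B6, and 11 of 12 lower in D2-13B6 against D2. Over all genes tested, these shares were 29.8% higher, 32.9% lower and 29.7% lower. In D2-13B6 against B6 the list split, with 4 called higher and 6 lower, beside 24.5% and 34.6% of all genes. There Col3a1, Postn, Lum and Dcn had the higher mean in D2-13B6, against the order of Vim. The collagen genes Col1a1 and Col1a2 made up 76.0% to 79.2% of the sum, and Dcn and Lum, the least abundant, lay between 0.491 and 5.58 CPM. None of the 12 was at 0 in any library. The summed level of 10 embryonic stem cell markers was highest in B6-13D2 and lowest in D2, with B6 above D2-13B6 as in the fibroblast sum, at 6223 ± 153 CPM (SD, n = 3) for B6-13D2, 5385 ± 184 for B6, 4512 ± 29.5 for D2-13B6 and 3699 ± 44.5 for D2.

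Divided by the fibroblast sum, most mesenchymal genes were nearly level across groups. The ratio of the highest to the lowest group mean went from 4.69 to 1.07 for Twist1, from 4.80 to 1.12 for Prrx1, from 5.06 to 1.16 for Zeb2, from 4.23 to 1.17 for Snai2, from 5.47 to 1.20 for Cdh2, from 4.12 to 1.21 for Vim and from 5.89 to 1.295 for Twist2. Zeb1 went from 2.60 to 1.91, from the narrowest span of the 8 to the widest. Without Col1a1 and Col1a2 in the divisor these spans lay between 1.07 (Zeb2) and 1.31 (Vim), again with Zeb1 apart at 1.94. For the adhesion genes the same division widened the span, from 4.16 to 20.6 for Cdh1 and from 2.15 to 9.91 for Epcam. Per 1000 CPM of the stem cell markers, Cdh1 was 90.2 ± 0.59 (SD, n = 3) in B6 and 88.6 ± 1.34 in B6-13D2, against 35.9 ± 2.05 in D2 and 55.0 ± 0.965 in D2-13B6. On that scale B6 and B6-13D2 lay closest together and D2 was lowest. Epcam per 1000 CPM of stem cell markers was 10.01 for B6, 14.8 for D2-13B6, 15.7 for D2 and 18.6 for B6-13D2. The part of fibroblasts or other cells in these results was not tested.

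**Figure D4:**
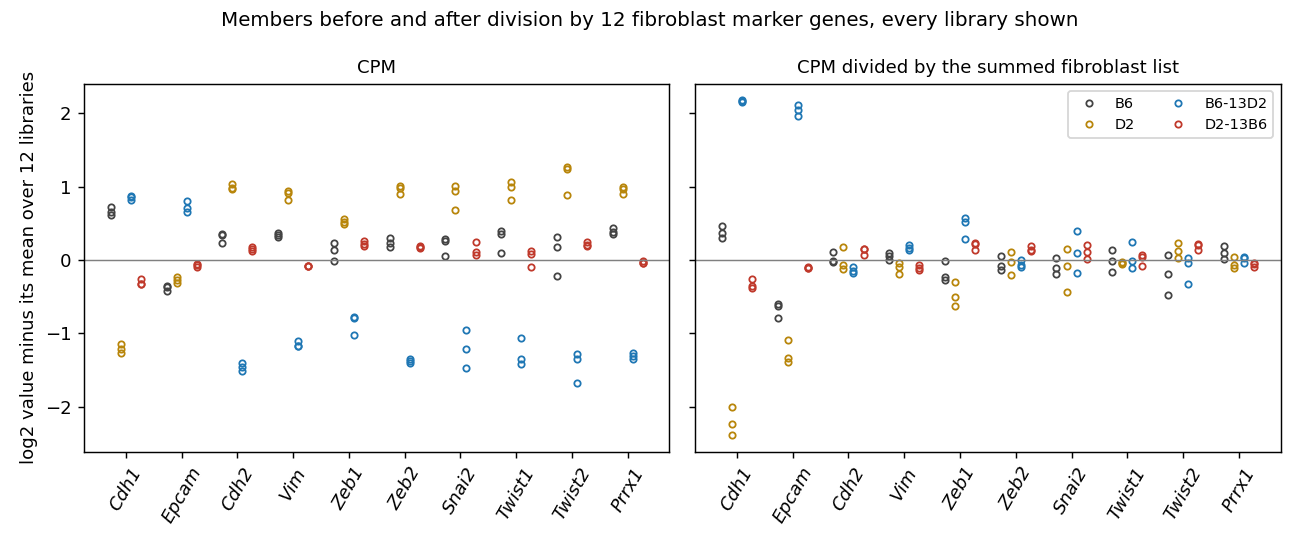
Log2 value of each gene minus its mean over the 12 libraries (vertical axis), as CPM on the left and as CPM divided by the summed level of 12 fibroblast markers on the right, with 1 circle per library, coloured by group. After division 7 mesenchymal genes lie near 0 in all groups (group means within 1.295-fold), Zeb1 spreads over 1.91-fold, and Cdh1 and Epcam spread over 20.6-fold and 9.91-fold.

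Markers of other cell types differed in level within each list. Of primitive endoderm, Gata6 and Sox17 reached at most 3.81 and 1.67 CPM, and Dab2 reached 31.0 CPM. Of mesoderm and primitive streak, T reached 3.47 CPM and Eomes 15.7 CPM. Of trophoblast, Cdx2 reached 4.93 CPM, while Tfap2c lay between 11.6 and 68.1 CPM. Of neural progenitors, Sox1 reached 7.62 CPM, Nes lay between 26.2 and 49.3 CPM, and Olig2 had 24.6 CPM in B6 and 39.2 CPM in B6-13D2 but means of 0.0535 CPM in D2 and 0.0756 CPM in D2-13B6. Mesp1, Pax6 and Neurog2 were at 0 in at least 1 library. The summed primitive endoderm list followed the group order of Vim, at 1128 ± 27.7 CPM (SD, n = 3) for B6-13D2, 1808 ± 8.32 for D2-13B6, 2114 ± 23.5 for B6 and 2853 ± 130.2 for D2, and most of it came from the matrix genes Sparc and Col4a1. The summed lists for mesoderm (14.3 to 21.8 CPM over libraries), trophoblast (30.8 to 85.0 CPM) and neural progenitors (47.3 to 79.4 CPM) did not share that order. Their part in the results was not tested.

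Other genes of the epithelial programme were followed through lists. Positions of the genes in this and the later lists are not given here, so some may lie on chromosome 13. Of 16 tight junction and polarity genes, 11 fell and 1 rose in D2 against B6, 13 rose and 2 fell in B6-13D2 against B6, and 10 rose and 1 fell in D2-13B6 against D2, with median log2 fold changes of -0.69, 0.56 and 0.41. Over all genes tested, 30.3% fell and 29.8% rose in the first comparison, 25.4% rose and 32.9% fell in the second, and 27.6% rose and 29.7% fell in the third, and counts of the other lists are read against the same shares. Cldn4, a claudin, had 65.9 CPM ± 5.39 (SD, n = 3) in B6 and 22.1 ± 1.71 in D2, 2.96-fold lower (edgeR adjusted p 6.415e-13). Cgn, the junction scaffold cingulin, was 2.85-fold lower (edgeR adjusted p 2.633e-11) and Tjp3 2.59-fold lower in D2 (edgeR adjusted p 3.866e-09). Ocln, occludin, had 3.02 CPM ± 0.781 in D2 and 8.74 ± 0.443 in D2-13B6, 2.82-fold higher (edgeR adjusted p 7.104e-08). Crb3, a polarity gene under the abundance limit for named genes and named after its values were seen, had the largest absolute log2 fold change of the list in these 3 comparisons, -2.55 in D2 against B6 (edgeR adjusted p 1.039e-07). In each of the 3 comparisons most calls of the list had the sign of the Cdh1 difference.

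Among 16 tested regulators of the epithelial programme and keratins (17 listed), 11 fell and 2 rose in D2 against B6, 9 rose and 3 fell in B6-13D2 against B6, and 11 rose and 2 fell in D2-13B6 against D2. Spint1, a membrane protease inhibitor, had 112 CPM ± 8.16 (SD, n = 3) in B6 and 29.9 ± 0.915 in D2, 3.74-fold lower (edgeR adjusted p 5.127e-15). Elf3, an ETS factor of epithelia, ranged from 21.4 CPM ± 0.254 (SD, n = 3) for D2 over 61.7 ± 1.42 for D2-13B6 and 71.5 ± 2.05 for B6 to 164.7 ± 7.91 for B6-13D2, and was 3.35-fold lower in D2 than in B6 (edgeR adjusted p 4.497e-15). Ap1m2, an adaptor subunit of epithelial sorting, was 3.49-fold lower in D2 than in B6 (edgeR adjusted p 4.936e-10), but against the direction of Cdh1 it was lower still in D2-13B6 than in D2 (log2 -0.86, edgeR adjusted p 6.724e-05). Grhl2, a grainyhead factor that activates Cdh1 and Epcam in epithelia, was low, at 4.84 CPM ± 0.531 in D2 and 10.6 ± 0.734 in D2-13B6, 2.19-fold higher (edgeR adjusted p 8.805e-08). It did not follow Cdh1 elsewhere: it was also higher in D2 than in B6 (log2 0.35, edgeR adjusted p 0.0258) and had its lowest mean, 3.49 CPM, in B6-13D2. The keratin genes, named after their values were seen, were the 3 genes of the list that fell in B6-13D2 against B6: Krt8 fell by 0.58, Krt18 by 0.76 and Krt19 by 0.29 on the log2 scale (edgeR adjusted p 1.717e-05, 1.122e-05 and 0.0004607). Krt18 was also higher in D2 than in B6 (log2 0.35, edgeR adjusted p 0.005572). Ovol2, under the same abundance limit as Crb3 and named after its values were seen, had the lowest log2 fold change of the list in the same 3 comparisons, -1.94 in D2 against B6 (edgeR adjusted p 9.215e-07).

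The adherens junction and desmosome list did not share a direction. Of its 12 genes 4 rose and 3 fell in D2 against B6, 4 rose and 4 fell in B6-13D2 against B6, and 5 rose and 2 fell in D2-13B6 against D2, with medians of -0.04, -0.06 and 0.10 on the log2 scale. These 7, 8 and 7 calls of 12 are near the shares called over all genes. Nectin2 was higher in B6-13D2 than in B6 by a log2 fold change of 0.58 (edgeR adjusted p 3.893e-09), Pkp2 1.33-fold higher in that comparison (edgeR adjusted p 3.82e-05), Nectin3 1.47-fold higher in D2 than in B6 (edgeR adjusted p 9.103e-09) and Dsp 1.33-fold lower in D2-13B6 than in D2 (edgeR adjusted p 0.004849). Ctnnb1, the catenin that binds the E-cadherin tail and was named after its values were seen, was not called by edgeR in any of the 3 comparisons, with log2 differences of 0.04, -0.06 and 0.08.

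On the mesenchymal side, 14 of 15 structural genes rose in D2 against B6, 14 fell in B6-13D2 against B6 and 14 fell in D2-13B6 against D2. Cdh11, a mesenchymal cadherin, ranged from 23.4 CPM ± 0.536 (SD, n = 3) for B6-13D2 over 70.7 ± 3.67 for D2-13B6 and 97.4 ± 6.73 for B6 to 166 ± 3.36 for D2. It was 4.16-fold lower in B6-13D2 than in B6 (edgeR adjusted p 1.702e-15), with Cd44 3.67-fold (adjusted p 2.743e-16), Tnc 3.66-fold (adjusted p 2.307e-16) and Axl lower by a log2 fold change of -1.74 (adjusted p 1.466e-15). One gene of this list, Thy1, is also among the fibroblast markers, and Cdh11, Cd44, Tnc and Axl had the group order of Cdh2. The summed fibroblast markers had that order too, and their part in these counts was not tested.

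Of 15 further transcription factors linked to the transition, 8 rose and 4 fell in D2 against B6, 2 rose and 11 fell in B6-13D2 against B6, and 2 rose and 10 fell in D2-13B6 against D2. Sox9 fell 4.06-fold in B6-13D2 against B6 (edgeR adjusted p 5.419e-10), from 7.22 CPM ± 0.28 (SD, n = 3) to 1.79 ± 0.444. Foxc2 fell 3.56-fold (edgeR adjusted p 8.469e-12), Foxc1 3.49-fold (edgeR adjusted p 9.814e-09) and Prrx2, the relative of Prrx1, 2.77-fold (edgeR adjusted p 3.108e-09). Snai3, under the abundance limit for named genes and named after its values were seen, rose in B6-13D2 against B6, where most of the list fell, from 0.745 CPM ± 0.209 to 2.19 ± 0.149 (log2 fold change 1.55, edgeR adjusted p 8.113e-05). Snai1, named after its values were seen because it is the closest relative of Snai2 on the list, ranged from 7.75 CPM ± 0.741 for B6-13D2 over 13.7 ± 0.721 for B6 and 15.1 ± 0.446 for D2-13B6 to 19.7 ± 2.84 for D2. The Snai1 mean of D2-13B6 lay above that of B6, while for Snai2 these groups overlapped and were not called different by edgeR.

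TGF-beta, a signal that induces the transition in epithelial cells, was examined through 12 genes of its ligands, receptors, SMADs and the SMAD corepressors Ski and Skil. Of these 9 rose and 1 fell in D2 against B6, 10 fell and 0 rose in B6-13D2 against B6, and 7 fell and 1 rose in D2-13B6 against D2. Over all genes 29.8% rose and 30.3% fell in the first of these, 25.4% and 32.9% in the second, and 27.6% and 29.7% in the third, so the 8 calls of 12 in the third are near the share over all genes. In B6-13D2 against B6 the ligand Tgfb3 fell by 1.93 on the log2 scale (edgeR adjusted p 2.257e-15), Tgfb2 3.57-fold (edgeR adjusted p 1.203e-15), Tgfb1 1.89-fold (edgeR adjusted p 1.579e-10) and the receptor Tgfbr2 3.37-fold (edgeR adjusted p 7.886e-15). Chromatin repressors and partners recruited to Cdh1 showed smaller differences. Of these 8 genes, 1 rose and 6 fell in D2 against B6, 2 rose and 1 fell in B6-13D2 against B6, and 4 rose and 2 fell in D2-13B6 against D2, against the same shares over all genes. Suz12, a subunit of Polycomb repressive complex PRC2, was 1.63-fold higher in D2-13B6 than in D2 (edgeR adjusted p 1.869e-11), and the corepressor Ctbp1 1.39-fold lower (edgeR adjusted p 2.152e-07). In D2 against B6 the deacetylase Hdac1 was 1.36-fold lower (edgeR adjusted p 1.237e-07) and the demethylase Kdm1a 1.33-fold lower (edgeR adjusted p 5.839e-08).

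Genes with a pattern most like Cdh1, Cdh2 or Vim were named by the smallest root mean square difference of centred log2 CPM over the 12 libraries, among 11236 genes. Nearest to Cdh1 were Adam11 (0.12), Swt1 (0.15) and Carmil3 (0.16). Nearest to Cdh2 were Zyx (0.07), Msrb3 (0.08) and Fbn1 (0.08), and nearest to Vim were Thy1 (0.05), H13 (0.05) and Emp1 (0.05). Fbn1 and Thy1 are among the 12 fibroblast markers. The genes nearest to Cdh1 were farther from it than those nearest to Cdh2 and Vim were from theirs, and the other members were not examined this way. Mean levels of Fbn1 were 135 CPM for B6-13D2, 399.6 for D2-13B6, 426 for B6 and 662 for D2, while those of Swt1 were 71.7 CPM for B6-13D2, 61.6 for B6, 27.0 for D2-13B6 and 18.4 for D2.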

How the data were processed

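The authors deposited expected counts, estimated reads per Ensembl gene and library that need not be whole, made with EMASE per the file's title. Bowtie 1.0.0, edgeR 3.34.1 and mm10 are listed without roles, per the submitters' processing notes. Annotation release, filters, strand use and whether reads of each strain were aligned to its own genome are not given in the sources used here, and reads with strain variants may be counted with different efficiency. Symbols and positions came from GENCODE M21 (GRCm38, the assembly of mm10), which matched 42462 of 43346 IDs.

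After rounding, edgeR 4.0.16 under R 4.3.3 tested the counts (filterByExpr by group, minimum count 10, TMM scaling, quasi-likelihood fit of 4 group means over 12 libraries, two-sided). P-values were adjusted by Benjamini-Hochberg over 17148 genes within each contrast, and a gene with an adjusted p under 0.05 is called. A standard error was taken as |log2 fold change| over sqrt(F). CPM use TMM-scaled library sizes, and CPM per kb divide by the summed exon length of GENCODE M21. Similar genes used log2 of CPM plus 0.5 and a mean log2 CPM of at least 2. From each list, up to 4 called genes past that same abundance limit, with the largest absolute log2 fold change over D2 against B6 and each congenic line against its background strain were named. The alternatives were DESeq2 1.42.0, size factors by RLE, either no filter or one at a mean CPM of 1, a block for the replicate number, fits on only the libraries compared, a pseudocount of 2 CPM and leaving out each library. On simulated counts edgeR recovered 96.5% of 200 genes changed by a log2 of 1 among 16404 tested, with 9 false calls. The members and the lists were chosen with earlier results of these data known, so counts over them are descriptions.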

Additional observations from a re-analysis of the deposited data

Results flagged for a closer look

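For all 10 genes the D2 minus B6 difference at the chromosome 13 segment, as carried by each congenic line, differed between the backgrounds by edgeR's test of both congenic lines minus both parental strains. The labels give the segments of the lines different boundary markers, so this is not the effect of exactly the same segment. In this contrast 31.1% of all genes tested were called higher and 33.4% lower. The contrast cannot be told apart from anything the congenic libraries share, such as a batch that the further character in their column names may mark. The log2 difference was 1.09 for Cdh1 (edgeR adjusted p 4.82e-12) and 1.30 for Epcam (edgeR adjusted p 1.843e-12). It was -2.61 for Cdh2 (edgeR adjusted p 1.772e-16) and -2.46 for Vim (edgeR adjusted p 3.084e-17). Among the transcription factors it was -2.69 for Prrx1 (edgeR adjusted p 2.959e-17), -2.47 for Twist1 (edgeR adjusted p 1.359e-11), -2.45 for Twist2 (edgeR adjusted p 1.042e-08), -2.40 for Zeb2 (edgeR adjusted p 1.964e-14), -2.14 for Snai2 (edgeR adjusted p 3.485e-09) and -1.28 for Zeb1 (edgeR adjusted p 5.325e-10). The summed fibroblast markers were lower in each congenic line than in the parental strain of its background, and their part in these differences was not tested.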

How the results depend on the processing

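The number of the 10 genes called stayed at 10 under the alternatives run in 5 of the 7 contrasts, at 9 to 10 in D2 against B6 and at 5 to 7 in D2-13B6 against B6 (main value 6). Of the members' fold changes under alternatives, 866 kept direction and side of the threshold, 16 lost a call, 5 gained one and 3 changed sign. Those 3 were uncalled differences of D2-13B6 against B6: with only the libraries compared, Zeb2 went to 0.0051 and Snai2 to 0.0079, and leaving out single libraries moved Twist2 between -0.0347 (without B6 replicate 3) and 0.2249 (without B6 replicate 2) on the log2 scale. Epcam in D2 against B6 lost its call with no filter (adjusted p 0.084), with the replicate block (0.0561), with only the libraries compared (0.0591) and without any of 5 single libraries (0.0533 to 0.168). In D2-13B6 against B6, Cdh2 lost its call under DESeq2 and when only the libraries compared were fitted, Twist1 with DESeq2, RLE size factors, only the libraries compared and without B6 replicate 1, B6 replicate 2 or D2-13B6 replicate 3, and Zeb1 gained one with DESeq2, RLE size factors, no filter, only the libraries compared and without B6 replicate 2. The cause was not tested. Over all genes, the percentage of calls that were higher went from 49.6% to 56.7% in D2 against B6, from 43.5% to 52.0% in B6-13D2 against B6 and from 41.5% to 49.3% in D2-13B6 against B6 when RLE replaced TMM. With the replicate block the log2 fold changes kept their signs and only the Epcam call changed. Replicate numbers did not pair the libraries: deviations of 18 same-numbered pairs correlated at a mean of -0.00884 (-0.149 to 0.087), and 5 of 12 libraries correlated best with their own number. With a pseudocount of 2 CPM, 1 of the 3 genes nearest to Cdh1 remained. Depth limits Twist2 most, with 36.74 counts in its lowest library.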
